A study of Homo sapiens with 3 samples.

Results

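The genes that encode the proteins of the cytosolic ribosome were followed in the human colorectal cancer line HCT116 after knockdown of the circular RNA circRAPGEF5. The series title places circRAPGEF5 in RAS/RAF/MEK/ERK signaling. There were 3 RNA-seq libraries: 1 that received a control shRNA (sh_control) and 2 that received shRNA against circRAPGEF5 (sh_circRAPGEF5_1 and sh_circRAPGEF5_2, called kd1 and kd2). All came from HCT116 cells, for which the labels give the genotype as MT without saying what it stands for, and all were harvested 36 or 48 h after the shRNA system was introduced, with no statement of which library had which time. Whether kd1 and kd2 used different hairpins or came from separate cultures is not stated, so a difference between them measures the spread of these libraries only, which may be technical. Members were taken by gene symbol (RPL or RPS with a number and at most 1 letter and number after it, plus RPLP0, RPLP1, RPLP2 and RPSA), which gave 82 of 15625 listed genes. The circular RNA itself was not analysed here, and no row that could check its knockdown was used. Of the members, 77 are core ribosomal proteins, 46 of the large and 31 of the small subunit, and 5 are paralogs whose symbols end in L or L1.

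A ribosome joins a large subunit, where peptide bonds form, and a small subunit, which reads the messenger RNA. Most core proteins are needed about equally per ribosome, and the genes are among the most strongly transcribed of a growing cell. Their messenger RNAs begin with a C followed by a run of pyrimidines, the terminal oligopyrimidine (TOP) tract, through which the kinase mTOR and the RNA-binding protein LARP1 govern their translation and stability. A few members have paralogs, extra genes whose proteins resemble a core protein and are used in some tissues or have tasks outside the ribosome.

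The tract can be read in the letters around the annotated transcription starts, which are shown because core genes and paralogs differ there. The 30 letters run from 15 bases before the start to 15 bases from the start on, 5′ to 3′ on the gene's own strand, from RefSeq on GRCh38.p14. Capitals mark a run that begins with C at the first transcribed base and has at least 4 more pyrimidines (C or T) directly after it.
RPLP0, chr12:120201097-120201126, minus strand: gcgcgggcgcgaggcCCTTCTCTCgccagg
RPS6, chr9:19380222-19380251, minus strand: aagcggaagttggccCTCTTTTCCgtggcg
RPS18, chr6:33272060-33272089, plus strand: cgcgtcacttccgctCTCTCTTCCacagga
RPL24, chr3:101686704-101686733, minus strand: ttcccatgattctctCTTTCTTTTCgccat
RPL26, chr17:8383179-8383208, minus strand: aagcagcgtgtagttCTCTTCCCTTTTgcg
RPS27, chr1:153990747-153990776, plus strand: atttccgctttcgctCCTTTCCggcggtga
RPL22, chr1:6199581-6199610, minus strand: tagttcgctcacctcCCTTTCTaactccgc
RPL22L1, chr3:170870181-170870210, minus strand: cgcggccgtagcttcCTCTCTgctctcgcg
RPL26L1, the first of its starts, chr5:172958714-172958743, plus strand: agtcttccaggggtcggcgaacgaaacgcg
RPL7L1, chr6:42879601-42879630, plus strand: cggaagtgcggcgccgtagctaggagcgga
RPS27L, chr15:63157463-63157492, minus strand: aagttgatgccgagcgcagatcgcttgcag
RPL3, chr22:39319609-39319638, minus strand: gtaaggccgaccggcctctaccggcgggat

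Of 62 core members with a listed start, 46 (74.2%) had such a run at a start, against 5.14% of the 27305 genes of the same start table and 7.29% of the other tested genes found in it. The share was 73.7% in the large and 75% in the small subunit. Allowing the run to begin up to 5 bases to either side of the start, on the gene's strand, raised the core count to 53 and the share of all genes to 25.2%. RPL3, shown last above, is one of those added. Among the paralogs with a listed start, RPL22L1 had the run and RPL7L1, RPL26L1 and RPS27L did not, also when shifted. The absence of these letters from a listed window says nothing about the starts used in these cells.

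Levels are in FPKM, that is, fragments divided by gene length in kilobases and by the library's total, so they can be compared between genes per length. Behind them stand at least 14632390 reads in the control, 14832142 in kd1 and 15758794 in kd2. Every difference given is a log2 difference, taken on FPKM + 1, between a knockdown library and the control. Of 8 epithelial markers, 5 passed the filter. In control, kd1 and kd2, EPCAM was at 176, 170.0 and 191 FPKM and the adhesion gene CDH1 at 33.1, 20.3 and 26.7. The keratin genes KRT8 (1031, 1084 and 1694), KRT18 (477.5, 652 and 885) and KRT19 (563, 622 and 1079) were above the control in both knockdown libraries. CDH17, VIL1 and LGALS4, markers of differentiated gut epithelium, were below 0.4 FPKM in each library. Of the 15 fibroblast, leukocyte, endothelial and erythroid markers looked for, 7 had a row, and their summed level was 14.6, 4.84 and 9.12 FPKM in the same order, most of it COL1A1 (13.4, 4.64 and 8.38). PTPRC, the leukocyte marker, was listed at 0 in the control and kd1 and at 0.00901 FPKM in kd2. The part of these markers in the results was not tested.

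Ribosomal protein messages took a smaller part of the knockdown libraries than of the control. Their summed FPKM was 21.4% of the summed FPKM of all listed genes in the control, 17.0% in kd1 and 15.2% in kd2. The knockdown libraries lay at 16.1% ± 1.28 (SD, n = 2), a difference of -5.30 percentage points from the control. The 2 knockdown libraries were nearer to each other than to the control, but an exact permutation test of 1 against 2 libraries has 3 splits and cannot go below p = 0.33. In bulk RNA, fewer ribosomal protein messages and more of other messages cannot be told apart, since FPKM is relative to the library, nor can fewer cells of a type and less RNA per cell.

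**Figure D1:**
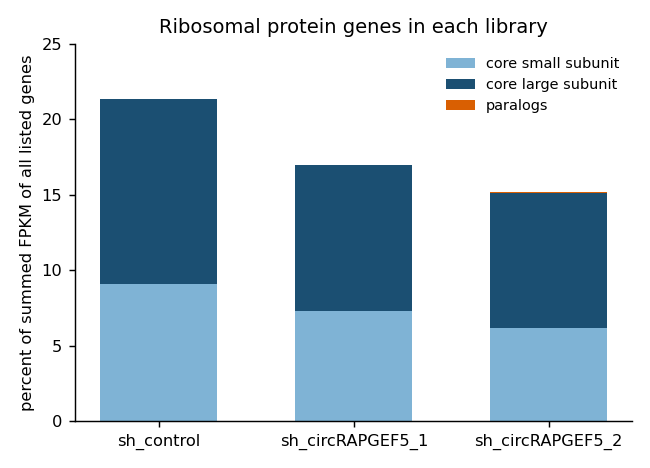
Percent of the summed FPKM of all listed genes that ribosomal protein genes held in each library (bars from 0, 1 library each), split into core small subunit, core large subunit and paralogs. The bars reach 21.4% in the control, 17.0% in kd1 and 15.2% in kd2, and the paralogs are a sliver at the top.

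Both subunits shared in this difference. The core large subunit held 12.2% of summed FPKM in the control, 9.68% in kd1 and 8.93% in kd2. For the core small subunit the shares were 9.10%, 7.26% and 6.19%. The ratio of the large to the small subunit sum was 1.34 in the control, 1.33 in kd1 and 1.44 in kd2, so kd2 alone stood off from the control on this measure.

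Of the 80 members with a mean FPKM of at least 1, none passed limma's test of the knockdown libraries against the control at an adjusted p of 0.05, where 0.0178% of the 11216 genes tested did. The limma adjusted p values of members ran from 0.706 to 0.999. At an unadjusted p under 0.05, no member was lower, where 3.99% of genes tested were, and 1 was higher, the paralog RPL7L1, where 3.08% were. With 1 residual degree of freedom among the libraries, the members are described by their values and counts.

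The core messages lay below the control in most cases. Of 76 tested core members, 61 were lower in both knockdown libraries, 5 were higher in both and 10 lay on opposite sides. Both knockdown libraries are set against the same control library, so lying on the same side in both is not independent agreement. Over all genes tested, 37.6% were lower in both and 31.7% higher in both. The core median difference was -0.20 in kd1 and -0.49 in kd2, against -0.04 and -0.04 over all genes tested. The 69 other genes at least as abundant as the lower quartile of the core (315 FPKM) had a median of 0.10, with 15 lower in both and 28 higher in both. Rescaling the libraries by median ratios gave core medians of -0.10 in kd1 and -0.41 in kd2 and left 51 core members lower in both, and quantile normalization 54, and both gave 5 higher in both. In the small subunit alone, 18 of 31 were lower in both after the median ratios.

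In the large subunit, 36 of 45 tested core genes were lower in both knockdown libraries, 2 were higher in both, and the median difference was -0.34. RPL3, which reaches into the peptidyl transferase centre, had 2136 FPKM in the control, 709 in kd1 and 1399 in kd2. Its mean difference of -1.10 ± 0.51 (SE) was the lowest of the subunit (limma adjusted p 0.706). RPL10A, a protein near the exit site for transfer RNA, was at 964, 330.2 and 673 FPKM in the same order. RPL36 was at 712, 290 and 571 FPKM. RPL19, which forms a bridge to the small subunit, was at 1268, 524 and 1010.2 FPKM. In these 4 genes both knockdown libraries were below the control, and kd1 was much the lower. RPL13A, which also takes part in interferon-gamma-controlled translation, was at 2463, 1806 and 1336 FPKM and so had the opposite order of the knockdown libraries.

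The stalk proteins, which recruit the GTPase translation factors to the large subunit, had mean differences of -0.49 (RPLP0), -0.20 (RPLP1) and -0.35 (RPLP2). With quantile normalization these shrank to -0.17, -0.06 and -0.03. RPLP0, the base of the stalk and the most abundant core message of the large subunit by mean FPKM, was at 3212 FPKM in the control, 2718 in kd1 and 1932 in kd2. RPLP2 was at 1772, 1538 and 1255 FPKM. RPLP1 was at 1086 FPKM in the control, 1104 in kd1 and 806 in kd2, and so did not lie below the control in both. RPL5 and RPL11, which form with 5S RNA a particle that can bind the ubiquitin ligase MDM2, were at 1125, 896 and 990 FPKM and at 868, 820.3 and 603 FPKM. Their mean differences of -0.26 and -0.30 were near the median of the subunit. RPL8, of the peptidyl transferase centre, was at 2257, 2066 and 1942 FPKM, and its mean difference of -0.17 turned to 0.01 with quantile normalization.

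Few large subunit genes were above the control. RPL24, another bridge protein, was at 774 FPKM in the control, 921 in kd1 and 857 in kd2. RPL17 was at 8.48, 12.8 and 14.8 FPKM. RPL35A lay on opposite sides, at 394 FPKM against 435 and 361, and its mean difference of 0.01 turned to -0.12 with kd2 alone. The difference of RPL17, 0.64 ± 0.42 (SE), was the highest of the subunit, with a limma adjusted p of 0.812.

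In the small subunit, 25 of 31 core genes were lower in both knockdown libraries, 3 were higher in both, and the median difference was -0.38. RPS2, the core message with the highest level in the control, was at 4167 FPKM in the control, 1748 in kd1 and 3079.9 in kd2. RPS12 was at 1821, 1002 and 1258 FPKM. RPS23, a protein of the decoding centre, was at 319 FPKM against 178 and 213. These 3 genes lay below the control in both knockdown libraries, by mean differences of -0.84, -0.70 and -0.71.

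RPS27A encodes a ribosomal protein fused to ubiquitin, the tag of protein breakdown, and stood alone. It had 579.7 FPKM in the control, 504 in kd1 and 137 in kd2. Its mean difference of -1.14 ± 0.62 (SE, limma adjusted p 0.763) was the lowest of all members and came almost wholly from kd2 (-2.08 against -0.20).

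RPS6, the protein that S6 kinases phosphorylate, was at 1354 FPKM in the control, 1267 in kd1 and 849 in kd2. RPSA, also known as the laminin receptor precursor, was at 2167, 1588 and 1437 FPKM, and RPS18 at 3517, 3290.2 and 2258. All 3 were below the control in both. The mean difference of RPS18 was -0.37, and -0.12 with quantile normalization. RPS7, which can bind MDM2, was at 491, 759 and 697 FPKM, both above the control, with a mean difference of 0.57 ± 0.42 (SE) and a limma adjusted p of 0.831. RPS26, which lies at the exit of the messenger RNA channel, was at 250.1, 294 and 277 FPKM. RPS10 was at 2.31, 5.29 and 3.81 FPKM.

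**Figure D2:**
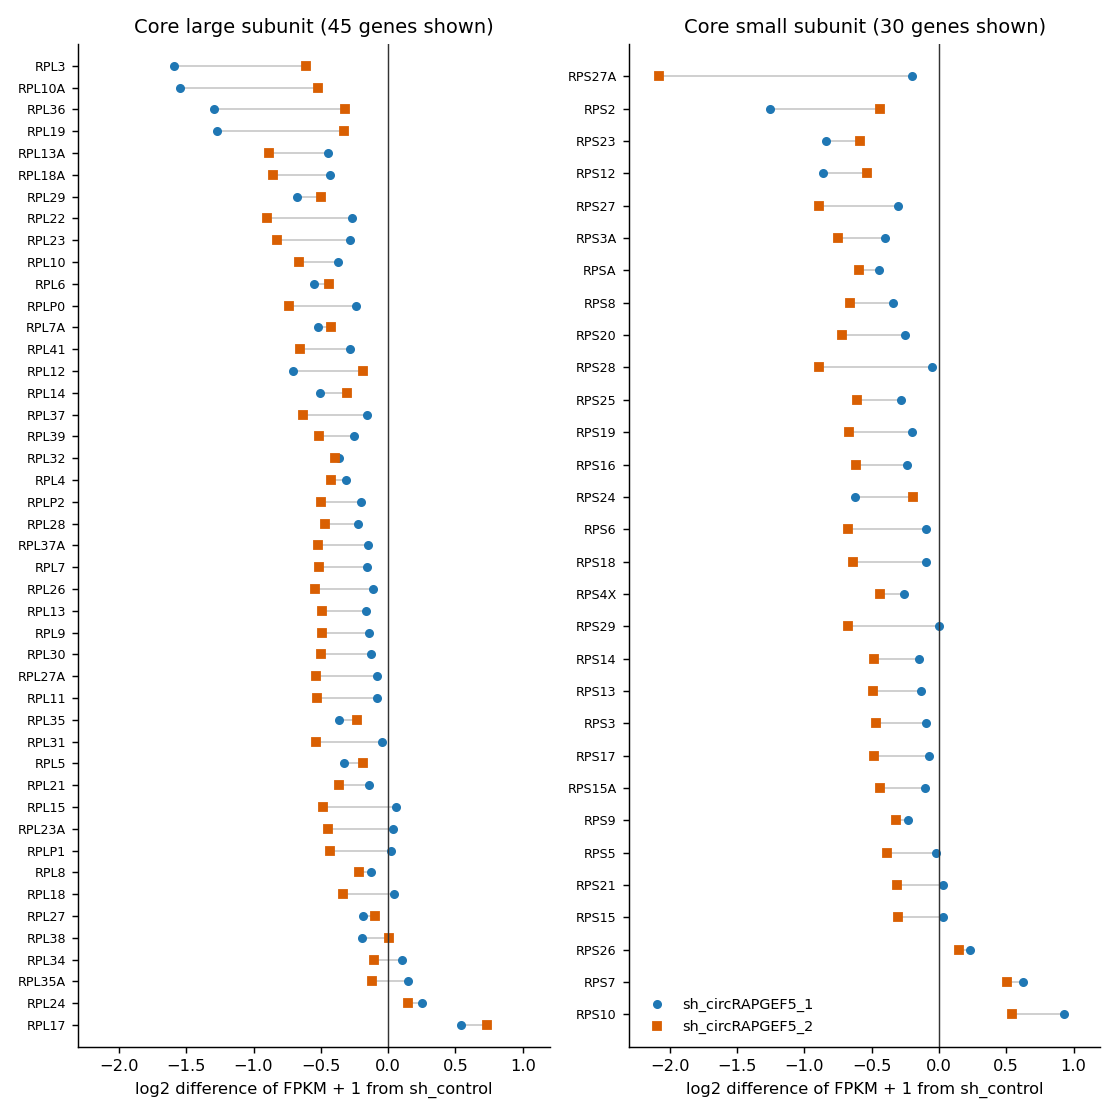
Log2 difference of FPKM + 1 from the control (x axis) for the tested core genes, 1 of the small subunit not drawn, large subunit left and small subunit right, sorted by the mean. Circles are kd1 and squares kd2, joined by a line, with 1 library per symbol and no error. Both symbols lie left of 0 in most genes of both subunits, and RPS27A has the longest line.

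Most core messages were lower in one knockdown library than in the other. Library kd2 was below kd1 in 58 of 76 tested core members, where 48.9% of all genes tested were, and the median log2 difference, kd1 minus kd2, was 0.33, against -0.02 over all genes tested. In 45 core members this difference lay between 0.2 and 0.6. A further 5 stood apart on the other side, at -0.8 or less: RPL10A (-1.02), RPL3 (-0.98), RPL36 (-0.97), RPL19 (-0.95) and RPS2 (-0.82). The next core member was RPL12 at -0.52, with 2219.97 FPKM in the control against 1361 and 1954. At the other end were RPS27A (1.87) and RPS28 (0.84, from 179 FPKM against 173 and 96.0).

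The 5 members that stood apart were picked after their values were seen, and they alone of the core were at least 2-fold lower in kd1, which 5.94% of all genes tested were. In kd2 RPS27A was at least 2-fold lower, as were 6.06% of all genes tested. No member was at least 2-fold lower in both, against 1.7% of all genes tested. The 5 lie on 5 chromosomes (22, 6, 17, 19 and 16) and belong to both subunits. The GC content of their transcripts in GENCODE was 55.7% for RPL3, 51.1% for RPL10A, 53.6% for RPL19, 62.2% for RPL36 and 59.0% for RPS2, where the core ranged from 39.7% to 63.8% with a median of 49.6%. The transcript taken for each gene was the one with its longest coding sequence. For some core genes it was long, such as 7686 bases for RPL37 and 7072 for RPL14. Those of the 5 ran from 707 (RPL36) to 1442 bases (RPL3). The part of GC content in their values was not tested.

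**Figure D3:**
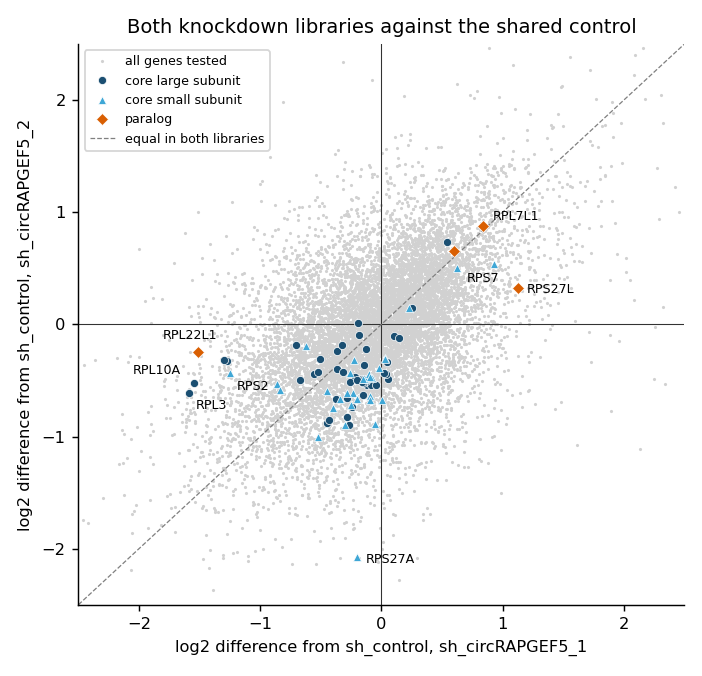
Log2 difference from the shared control in kd1 (x axis) and kd2 (y axis), for all genes tested (grey, 25 of them beyond the axes), core large subunit (circles), core small subunit (triangles) and paralogs (diamonds). Most core genes form a cluster below 0 on both axes and below the dashed line of equality, RPL3, RPL10A and RPS2 lie far to the left, and RPS27A far below.

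Of the 4 tested paralogs, 3 lay above the control in both knockdown libraries and 1 below it in both. The shares over all genes tested were 31.7% and 37.6%. RPL7L1, a factor of large subunit assembly, was at 44.2 FPKM in the control, 79.9 in kd1 and 82.2 in kd2. Its mean difference was 0.86 ± 0.39 (SE, limma adjusted p 0.706). RPL26L1 was at 17.5, 27.0 and 28.1 FPKM. RPS27L was at 9.04 FPKM in the control, 20.9 in kd1 and 11.6 in kd2. In these 3 genes both knockdown libraries lay above the control. RPL22L1 was the exception, at 89.2 FPKM in the control, 30.7 in kd1 and 75.3 in kd2. RPL3L, a paralog of striated muscle, was listed at 0 in the control and in kd2 and at 0.0233 FPKM in kd1. RPL10L and RPL39L were not among the listed genes.

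The parents of these paralogs were lower in both knockdown libraries. RPL7 was at 937 FPKM in the control, 839 in kd1 and 655 in kd2, RPL26 at 1109, 1023 and 761, RPS27 at 1249, 1013 and 672, and RPL22 at 296, 246 and 158. The parents of the 2 paralogs not listed, RPL10 and RPL39, were at 505, 389 and 318 FPKM and at 998, 836 and 699.7 FPKM. The log2 ratio of paralog to parent, from FPKM + 1, was higher in both knockdown libraries than in the control in 3 of the 4 pairs whose paralog was tested. For RPL7L1 to RPL7 it was -4.38 in the control, -3.38 in kd1 and -2.98 in kd2. For RPL26L1 to RPL26 it was -5.91, -5.19 and -4.71, and for RPS27L to RPS27 -6.96, -5.53 and -5.74. RPL36AL, whose symbol is outside the pattern, to RPL36A also gave higher values, 6.42 in the control against 6.86 and 7.20, with RPL36A near the pseudocount. RPL3L to RPL3 is not read, since RPL3L was at or near 0.

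RPL22L1 and RPL22 behaved otherwise. Their log2 ratio was -1.72 in the control, -2.96 in kd1 and -1.06 in kd2, so that the libraries lay on either side of the control. The mean difference of -0.29 turned to 0.66 with kd2 alone. RPL22L1 is the paralog that carries the pyrimidine run at its start, shown above. Its order of libraries is that of RPL3 and RPL10A, which lack the run at the first base, and of RPL36, which has it. The opposite order, kd2 below kd1, was found in 77.8% of the tested core members with the run. It was found in 62.5% of those without the run, 86.7% of those with no listed start and 48.9% of all genes tested. Coding sequences of paralog and parent were 68.0% identical for RPL22L1, 55.1% for RPL7L1, 84.1% for RPL26L1 and 76.98% for RPS27L over their aligned bases, and none of these 4 shared a stretch of 30 bases with its parent.

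**Figure D4:**
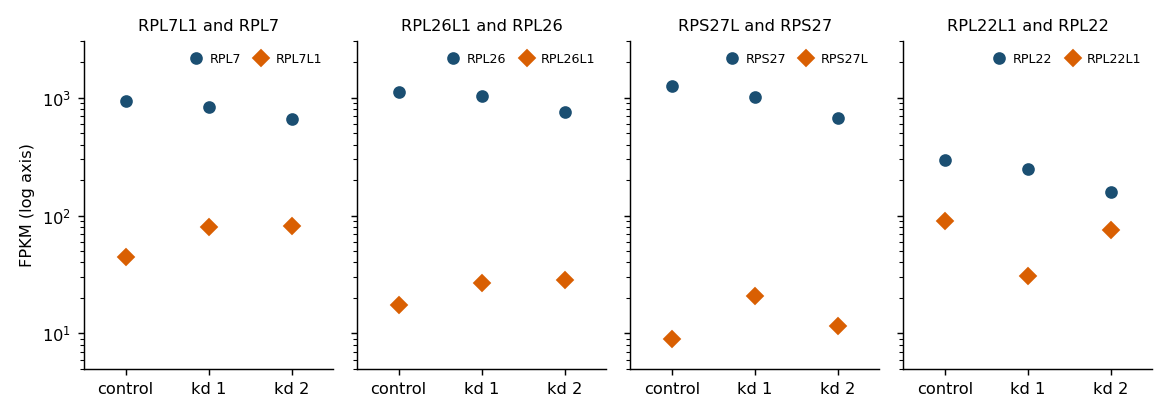
FPKM on a log axis in the control and in the knockdown libraries (kd 1, kd 2) for 4 paralogs (diamonds) and their parents (circles), with 1 library per point. RPL7L1, RPL26L1 and RPS27L lie above their control level in both knockdown libraries while their parents lie below theirs, and RPL22L1 is at 30.7 in kd1.

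Core genes with and without the pyrimidine run at the first base of a start had similar medians, but differed in the share lower in both. Core members with the run at a start had a median of -0.37 (45 tested, 37 or 82.2% lower in both). Those with listed starts but no run had -0.34 (16 tested, 10 or 62.5% lower in both). Among these 16 are RPL3, RPL10A, RPL19, RPL32, RPL4, RPS28 and RPS7, which have the run when it may be shifted as above. The comparison was not repeated with the shifted run, under which these genes change group. The core members with no start in the table had -0.34 (15 tested, 14 lower in both). Among other tested genes, the 660 with the run had a median of -0.10 with 43.8% lower in both, and the 8391 without it had -0.03 with 36.5% lower in both.

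Ribosomal proteins outside the symbol pattern and other TOP messages were of mixed direction. FAU, which encodes a small subunit protein fused to a ubiquitin-like one, was at 544 FPKM in the control, 529 in kd1 and 608 in kd2. RPL36AL was at 181, 198 and 223 FPKM and RACK1, a signaling scaffold on the small subunit, at 1550.2, 1406 and 1176. Of 17 other TOP messages tested, 10 were lower in both, 4 were higher in both and the median was -0.30. Of all genes tested, 37.6% were lower in both and 31.7% higher in both. EEF1A1, which brings aminoacyl-tRNA to the ribosome, was at 4611 FPKM against 3335 and 2593, and EEF2, which moves the ribosome along, at 1540.1 against 1346 and 1047. EIF3E, an initiation factor subunit, was above the control in both, at 135 FPKM against 257 and 229.8. None of the 17 passed limma's test.

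Of 15 regulators of translation tested, 9 were higher in both knockdown libraries and 2 lower in both, with a median of 0.48, and none passed. The list holds regulators of opposite action, so these figures give no direction of translation. Over all genes tested, 31.7% were higher in both. LARP1, which binds the tract, was at 48.1, 48.2 and 50.2 FPKM. LARP4, which binds poly(A) tails and stabilizes ribosomal protein messages, was at 8.51 FPKM in the control, 21.7 in kd1 and 26.3 in kd2, with a mean difference of 1.39 ± 0.41 (SE, limma adjusted p 0.499). MTOR was at 10.9 FPKM against 20.7 and 16.8, and the S6 kinase gene RPS6KB1 at 17.6 against 25.4 and 24.5. RHEB, the activator of mTOR, was at 26.5 FPKM against 22.5 and 16.2.

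Of 10 chaperones and assembly factors of single ribosomal proteins tested, 8 were higher in both knockdown libraries, against the same 31.7% of all genes. TSR2 was lower in both, and RRS1, which works with RPF2, was at 32.5 FPKM against 28.5 and 53.0. The list's median was 0.33, and none passed. BCCIP, which escorts RPL23, was at 29.2 FPKM in the control against 44.6 and 61.4, while RPL23 itself was at 319 against 262 and 179. RPF2, which places the 5S particle of RPL5 and RPL11, was at 11.2 FPKM against 18.8 and 19.6. TSR2, the chaperone of RPS26, was at 15.6 against 10.9 and 12.3. GRWD1, the chaperone of RPL3, was at 14.2 FPKM against 19.9 and 15.9. Among 9 genes of ribosome surveillance and quality control, 4 were higher in both and 1 was lower in both. The shares over all genes tested were 31.7% and 37.6%. MDM2 lay on opposite sides at 32.6 against 47.9 and 30.5.

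**Figure D5:**
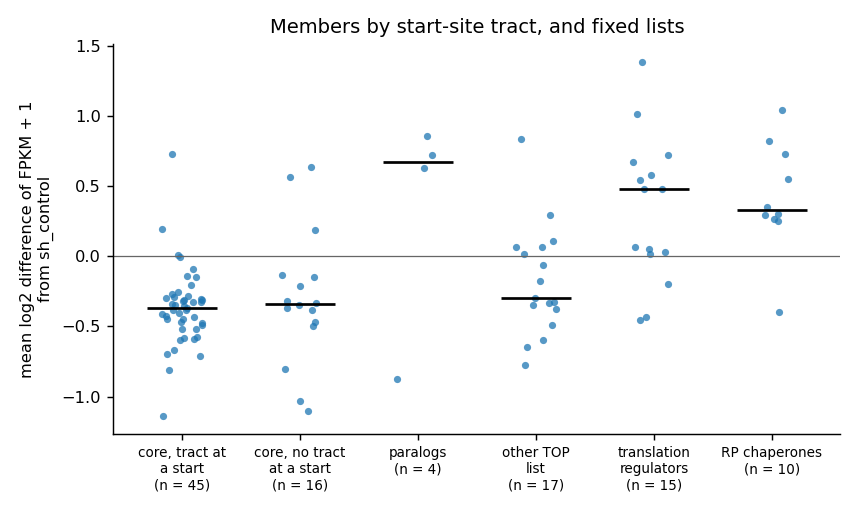
Mean log2 difference of FPKM + 1 of the knockdown libraries from the control (y axis) for each tested gene, grouped as core members with and without a pyrimidine run at a listed start, paralogs, other TOP messages, regulators of translation, and chaperones of ribosomal proteins. Points are genes, spread sideways at random, and bars are medians, which lie at -0.37, -0.34, 0.68, -0.30, 0.48 and 0.33.

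The members' levels carry an uncertainty of counting. RefSeq names 1988 pseudogenes after members, none of which has a row in the table, and the table does not show how reads that fit both gene and copy were counted. The 20 core genes with fewer than 10 such copies had 16 lower in both and a median of -0.31. The 56 tested with 10 or more had 45 lower in both and a median of -0.38. RPL17, RPL36A and RPS10 are each the first part of an annotated read-through gene, none of which has a row, and all 3 were among the 5 least abundant core messages. RPL36A was at 1.13, 0.716 and 0.525 FPKM, below the filter, with at least 14, 9 and 7 reads. RPS10 had at least 31, 72 and 55 reads and RPL17 at least 146, 223 and 274, so the members highest above the control in each subunit rest on few reads. The other 2 of the 5, RPS29 at 30.7, 30.7 and 18.9 FPKM and RPL37 at 111, 99.6 and 71.4 FPKM, have no such overlap.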

How the data were processed

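Messenger RNA was sequenced from 3 HCT116 libraries with the TruSeq Stranded mRNA kit, per the labels' protocols. The authors deposited FPKM per gene. Trimmomatic, HISAT2 and GRCh38.p13 are named in the submitters' processing notes; the counting program, the strand setting and the annotation behind the counts are each not given in the sources used here. For every gene (100%) the values of the libraries, with 1 depth factor each removed, stood to each other as whole numbers (relative tolerance 1e-11); the smallest such numbers were summed as depths, which are lower bounds.

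Genes with a mean FPKM of at least 1 (11216) were tested on log2(FPKM + 1), which understates the change of low genes, with limma 3.58.1 in R 4.3.3 (mean-variance trend, knockdown against control, Benjamini-Hochberg over all genes tested, threshold 0.05). With 1 control library, its spread was taken to be that between kd1 and kd2. limma then drew each gene's spread toward a trend over all genes tested, with 10.9 prior against 1 residual degree of freedom. Each SE given comes from this moderated spread and does not measure the difference between kd1 and kd2 alone. The fit was tested on simulated data. Starts, pseudogenes and chromosomes came from RefSeq (GRCh38.p14), to which all 82 members matched by symbol and Entrez number, and coding sequences from GENCODE, taking the longest per gene, aligned with Biopython 1.88.

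Members, lists and the rule for named genes were chosen with earlier results of these data known. That rule takes the stalk genes, RPSA, RPL5, RPL11, RPS6, paralogs with parents, the 5 lowest and 3 highest core genes of each subunit by mean difference, the 3 members with the largest difference between knockdown libraries each way, the 5 most and 5 least abundant core genes, and the 5 genes most like the core profile. RPL12, RPL23 and the genes of the fixed lists were named beside it. The alternatives tried were leaving out kd1 or kd2, quantile normalization, rescaling by median ratios, a filter at a mean of 5 FPKM or none, a pseudocount of 0.1 or 5, and limma with robust fitting, without its trend or with a prior of 5 degrees of freedom. Some items that these rules name are not reported here.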

Additional observations from a re-analysis of the deposited data

How the results depend on the processing

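No paired analysis was possible because the control is 1 library, so the groups share fewer than 2 replicate numbers; leaving out the control leaves no comparison, and leaving out a knockdown library gives values with no test. No ribosomal protein gene was called under any setting run. Over all genes, the 2 calls went to 1 with a pseudocount of 5, with median-ratio rescaling, without the trend and with robust fitting, and to 0 with no filter, with quantile normalization and with a prior of 5 degrees of freedom; at an unadjusted p under 0.05 there were 448 genes lower and 345 higher, and among members 0 lower and 1 higher. The median of genes as abundant as the core moved from 0.10 to 0.21 with median-ratio rescaling. With 1 knockdown library left out, core members below the control ranged from 62 to 70. That count needs only the library kept to be lower, so it could not fall under the 61 lower in both. On the same omissions, the large subunit median ranged from -0.49 to -0.20 and the small subunit median from -0.53 to -0.20. The abundant genes' median ranged from 0.07 to 0.16, and the change in the share of summed FPKM from -6.20 to -4.39 percentage points. The change in the log2 ratio of RPS27L to RPS27 was 1.16 with a pseudocount of 5 against 1.32. That of RPL36AL to RPL36A was 0.998 and 0.335 with pseudocounts of 0.1 and 5 against 0.61, RPL36A lying near the pseudocount. That of RPL22L1 to RPL22 turned from -0.29 to 0.66 without kd1 and was -1.24 without kd2. The filter and limma alternatives leave a gene's difference unchanged, so its sign could not turn in them. Of 417 alternative values of 38 named members, these included, 413 kept their sign. The 4 that did not were RPL35A (-0.12 without kd1, 0.14 without kd2), RPL8 (0.0143 with quantile normalization), RPLP1 (-0.43 without kd1, 0.0229 without kd2) and RPS29 (-0.67 without kd1, 0.00307 without kd2). The cause was not tested.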

Other observations

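Among the 100 genes with the highest mean FPKM, 49 were core ribosomal protein genes. By chromosome, 12 members lie on chromosome 19 and 8 on chromosome 3, and no other chromosome holds more than 6. Across the 76 tested core members, which share their libraries and are not replicates, Spearman's rho of the mean difference was -0.24 with mean FPKM, -0.16 with coding length, -0.09 with transcript GC content and -0.07 with the number of RefSeq pseudogenes. The difference between the knockdown libraries had a rho of -0.27 with coding length and -0.24 with transcript GC content. With the GC content of the coding sequence alone it was -0.0038.

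The 5 tested genes outside the members that lay nearest to the mean profile of the core, by root mean square distance of centred log2(FPKM + 1) over the 3 libraries, were ZNF710 (0.0038), PLEKHH1 (0.0054), KDM5C (0.0071), TMC8 (0.0078) and PELI3 (0.0080). KDM5C, a histone demethylase, was at 22.6 FPKM in the control, 18.5 in kd1 and 16.0 in kd2. With 3 libraries such a match is a description only.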
